A study of Mus musculus with 4 samples.

Results

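Mouse synovial fibroblasts that received IL-1β, the cyclooxygenase inhibitor indomethacin and the prostacyclin analogue iloprost were compared with the same kind of cells that received IL-1β alone. The comparison takes 1 array of each, 2 of the 4 arrays in the series, and was chosen by array title, not by any measured value. Knee joints of naive DBA/1J males, aged 8 to 12 weeks and free of arthritis, were the source of the cells. They were passaged 3 to 4 times and kept in medium with 1% serum. The dish with both drugs received IL-1β at 5 ng/ml, indomethacin at 1 µM and iloprost at 1 µM for 6 h, and the IL-1β dish received IL-1β at 5 ng/ml for 6 h. A dish with IL-1β and indomethacin and a dish with vehicle, also at 6 h, are quoted beside these values. Whether the dishes came from separate mice is not stated in the sources used here. Each group has a single array, so no replicate error, test or p-value can be given, and every difference describes these dishes.

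The cyclooxygenases turn arachidonic acid into the precursor of all prostanoids, among them prostaglandin E and prostacyclin. Prostacyclin acts on its receptor Ptgir, which raises cyclic AMP, activates protein kinase A and leads to phosphorylation of the transcription factor CREB. Prostaglandin E acts on 4 receptors, of which Ptger2 and Ptger4 also raise cyclic AMP. Synovial fibroblasts line the joint and, when given IL-1β, make prostanoids, cytokines, chemokines and matrix-degrading enzymes. The comparison therefore sets cells with their own prostanoid mixture against cells whose prostanoid synthesis was inhibited and replaced by an agonist of the prostacyclin receptor. The 2 dishes differ in both drugs, and prostanoid levels were not analysed here.

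Each array gave a signal per probe set, and 20380 probe sets that name 1 gene each covered 12393 genes. Signals were multiplied by 1.01 on the array with both drugs and by 0.915 on the IL-1β array, so that the median gene is equal on all arrays. All signals below are on this scaled unit. A signal under 37.7, the median over all values and called the floor here, was treated as not measured. Of the 12393 genes, 6986 had a log2 ratio between the 2 arrays and 5407 were under the floor on both. On 1 array 497 of the 6986 were under the floor, and their ratio is a bound. Log2 ratios of different probe sets for the same gene differed with an SD of 0.21, from 2395 genes with more than 1 measured probe set. This spread is between probe sets on the same 2 arrays and holds no variation between replicate dishes.

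The labelled cell type was checked against marker genes. All 17 fibroblast markers on the array had a ratio, with a median log2 of 0.09, or 0.01 as deposited, and a summed signal of 33556 with both drugs and 31465 with IL-1β. RNA of macrophage markers was also present. All 23 on the array had a ratio, 21 of them below the median gene, with a median log2 of -0.33 and a summed signal of 38051 with both drugs and 44115 with IL-1β. Csf1r, the receptor for macrophage growth factor, had signals of 4028 with both drugs and 4329 with IL-1β. Its other 2 measured probe sets went the other way, at log2 ratios of 0.40 and 0.41. The scavenger receptor gene Marco had 79.3 with both drugs and 217 with IL-1β. The high-affinity Fc receptor gene Fcgr1 had 271 with both drugs and 654 with IL-1β. These were the 2 markers at least 2-fold lower, and Fcgr3, another Fc receptor gene, was the highest at a log2 ratio of 0.52. Less RNA per cell and fewer cells of a type cannot be told apart in these bulk samples. All 8 lymphocyte and all 12 endothelial markers on the array were under the floor on both arrays.

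Genes at least 2-fold lower outnumbered genes at least 2-fold higher. With both drugs, 62 of 6986 genes (0.887%) were at least 2-fold higher than with IL-1β and 171 (2.45%) were at least 2-fold lower, 3.34% in all. Of the genes past this limit, 26.6% were thus higher, against 16.7% on the scale as deposited, where the counts were 44 and 220. The IL-1β array was brighter as deposited, which shifts every ratio by -0.14. At 4-fold or more, 6 genes were higher and 38 lower. At 8-fold or more, 2 were higher and 10 lower. Most genes were close to the same level, with 89.2% within 1.5-fold. The lower genes took a larger share of the genes with strong signals. Among 612 genes with a signal above 1000 on the brighter array, 39 (6.37%) were lower and 6 (0.980%) higher. Among 2183 genes with a signal of up to 100, 17 (0.779%) were lower and 12 (0.550%) higher. A gene whose brighter signal is less than 2-fold above the floor cannot pass the limit. The shares of the weakest genes are thus held down by the floor in both directions.

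**Figure D1:**
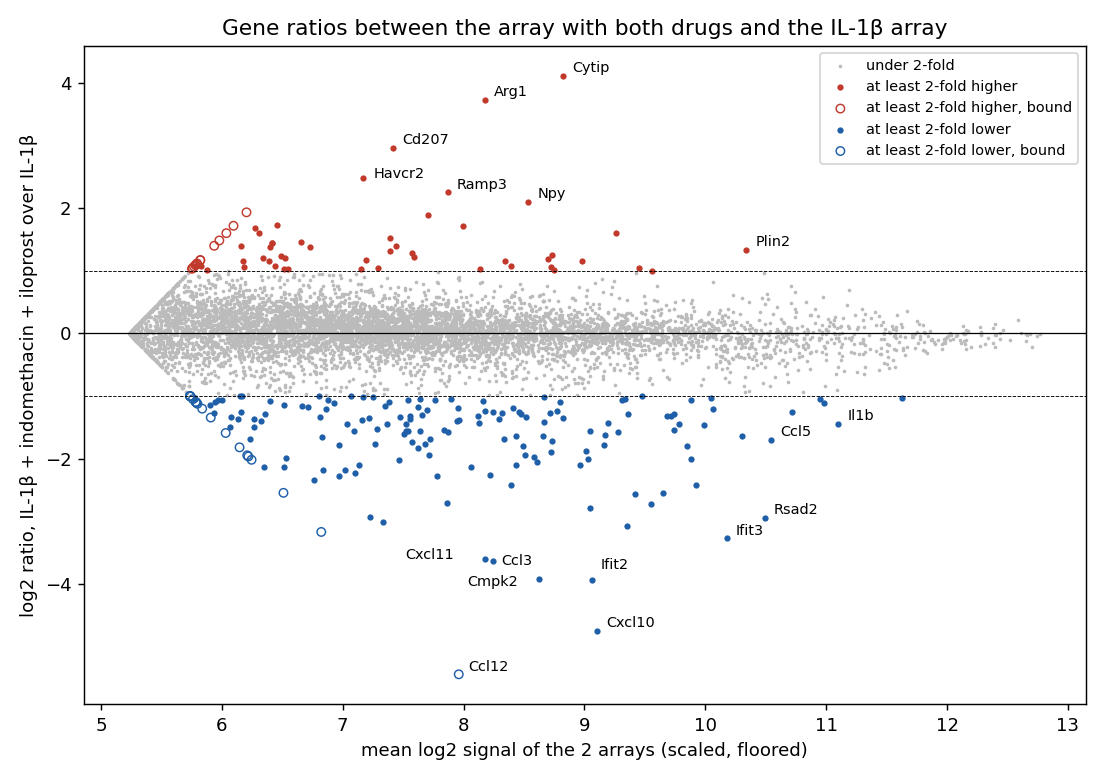
Log2 ratio of the array with both drugs over the IL-1β array against the mean log2 signal of the 2 arrays, 1 point per gene, 6986 genes. Red points are the 62 genes at least 2-fold higher and blue points the 171 at least 2-fold lower, with open circles for bounds. The dashed lines mark 2-fold, and the blue points reach further from 0 than the red ones.

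The limit of 2-fold has no gap around it. Bnip3, Ctla2a and Pbk lay just inside on the higher side, at log2 ratios of 1.00, 1.01 and 1.02, and Rpp25l, Slc37a2 and Cav2 just outside at 1.00, 0.99 and 0.97. On the lower side Oas3, Ets2 and Mcoln2 lay just inside, and Gbp2b, Slfn2 and Ccnd1 just outside, the last 2 at -0.99 each. Other probe sets of the same genes went the same way. Of the genes past the limit, 41 had another measured probe set, 51 probe sets in all. All 51 had the sign of the gene's ratio, 38 of them at 2-fold or more, 34 of 43 for lower genes and 4 of 8 for higher genes. For Cytip the second probe set had a log2 ratio of 4.32, and for Rsad2 the other probe sets had -3.13 and -3.20.

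Chemokine genes that bring in T cells and monocytes were among those with the lowest ratios, and Ccl12 and Cxcl10 had the 2 lowest. Cxcl10, a ligand of the T-cell receptor CXCR3, had a signal of 106 with both drugs, 2854 with IL-1β, 3625 with indomethacin and 3721 with vehicle. It was 26.9-fold lower than with IL-1β, a log2 ratio of -4.75, and the array with both drugs was the only one of the 4 with a low signal. Cxcl11, a second ligand, had 83.1 with both drugs, 1008 with IL-1β, 1305 with indomethacin and 1455 with vehicle, a log2 ratio of -3.60. Its other probe set was near the floor, at 43.3 with IL-1β and under the floor with both drugs. Cxcl9, the third ligand, was under the floor with both drugs, and had 340 with IL-1β, 697 with indomethacin and 1249 with vehicle. It was lower by at least 9.01-fold. All 3 ligands were thus lower with both drugs than on any other array.

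Among the chemokines of the CC and CX3C classes, 5 of 11 with a ratio were at least 2-fold lower and 0 higher, with a list median of -0.73 against 0.03 over all 6986 genes. Ccl12, a monocyte chemokine, was under the floor with both drugs, and had 1645 with IL-1β, 1872 with indomethacin and 1368 with vehicle, lower by at least 43.6-fold. Ccl3, which attracts monocytes and T cells, had 85.8 with both drugs, 1065 with IL-1β, 2391 with indomethacin and 1332 with vehicle. Its relative Ccl4 had 63.4 with both drugs, 297 with IL-1β, 761 with indomethacin and 313 with vehicle. Both were higher with indomethacin than with IL-1β, and lowest with both drugs. Ccl5, a T-cell chemokine, had 827 with both drugs, 2694 with IL-1β, 3568 with indomethacin and 3139 with vehicle. Ccl20, the ligand of CCR6, had 139 with both drugs, 286 with IL-1β, 278 with indomethacin and 42.5 with vehicle. Ccl2, a monocyte chemokine encoded near Ccl12 and Ccl7, had 4807 with both drugs and 5411 with IL-1β, at a log2 ratio of -0.17. Ccl7 was at -0.33, Ccl8 at -0.30 and Ccl6 at -0.24. Between these and Ccl20 lay Ccl9 at -0.60 and Cx3cl1, which encodes fractalkine, at -0.73.

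The CXC chemokines outside the CXCR3 ligands had 0 of 9 past 2-fold in either direction and a median of -0.23. Over all genes the share past 2-fold was 3.34%, so a count of 0 of 9 says little. Cxcl1, a neutrophil chemokine, had 2936 with both drugs, 3433 with IL-1β, 3294 with indomethacin and 698 with vehicle. Cxcl5, another, had 3277 with both drugs, 3990 with IL-1β, 3662 with indomethacin and 658 with vehicle. Both were high on all 3 arrays with IL-1β. Cxcl2 was the lowest of the class at a log2 ratio of -0.84, and Cxcl12, which retains leukocytes in tissue, was at 0.15.

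Antiviral interferon effectors were lower nearly throughout. Of 26 with a ratio, 22 were at least 2-fold lower and 0 higher, with all 26 below the median gene and a list median of -1.71. Ifit2, which binds viral RNA and blocks translation, had 136 with both drugs, 2091 with IL-1β, 2513 with indomethacin and 3232 with vehicle, a log2 ratio of -3.94. Ifit3, its partner, had 372 with both drugs, 3598 with IL-1β, 4539 with indomethacin and 4988 with vehicle. Rsad2, which encodes viperin, had 517 with both drugs, 3997 with IL-1β, 4805 with indomethacin and 5395 with vehicle. These genes had their highest signal with vehicle and were already lower with IL-1β, with a further and larger step on the array with both drugs. Cmpk2, a nucleotide kinase whose gene lies next to Rsad2, had a log2 ratio of -3.92 on its brighter probe set and -3.61 on the other. Usp18, which removes the ubiquitin-like ISG15 and damps interferon receptor signals, was at -2.73. The RNA sensor Ifih1 was at -2.57 and the nucleic acid sensor Zbp1 at -1.98.

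The other members covered a wide range. The oligoadenylate synthetases, which activate an RNase on viral RNA, ranged from -2.10 for Oasl1 through -1.46 for Oas1a to -0.91 for Oas2. Mx1, a GTPase against influenza virus, was under the floor with both drugs and had 220 with IL-1β and 498 with vehicle, a log2 ratio of at most -2.55. Adar, an RNA-editing enzyme, was at -0.56, the ubiquitin ligase Trim25 at -0.47 and the membrane protein Ifitm3 at -0.25. Ifitm3 had signals of 4193 with both drugs and 4984 with IL-1β. The sum of the signals of the list was 10112 with both drugs, 32634 with IL-1β, 37372 with indomethacin and 41537 with vehicle. Macrophages also express these genes, and the summed macrophage markers, 38051 with both drugs and 44115 with IL-1β, had 41741 with indomethacin and 44504 with vehicle. Their part in the result was not tested.

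Interferon-inducible GTPases and the Ifi200 family gave the same picture. Of 10 with a ratio, 9 were at least 2-fold lower and 0 higher, with a median of -2.35. Iigp1, a GTPase that attacks the vacuoles of intracellular parasites, had 225 with both drugs, 1893 with IL-1β, 2483 with indomethacin and 2892 with vehicle. Its second probe set had a log2 ratio of -3.61, against -3.07 for the first. Igtp, of the same family, was at -2.55, and Ifi47 at -2.79. Gbp7 was at -2.43 and Gbp6 at -2.27, while Gbp2 had 1310 with both drugs and 2045 with IL-1β, which gives a log2 ratio of -0.64. The other probe set of Gbp2 was at -0.96. The guanylate-binding proteins are close relatives, and probe sets may not separate them fully.

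**Figure D2:**
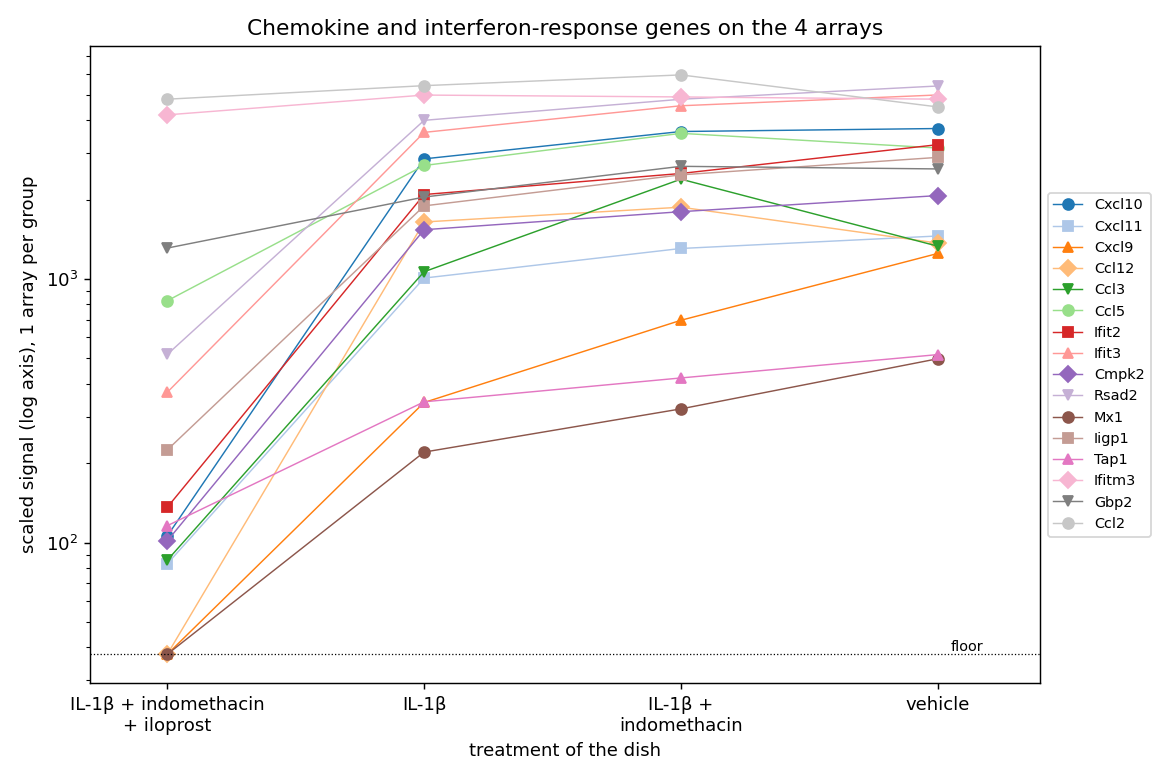
Scaled signal on a log axis for 16 chemokine and interferon-response genes in each of the 4 dishes, 1 array per group, with lines joining the points of a gene. Values under the floor of 37.7 are drawn at the floor. Cxcl10 and Ifit2 are low on the array with both drugs alone, while Ccl2 and Ifitm3 stand at similar levels with both drugs and with IL-1β.

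Promoters of these genes are shown because the genes were lower together. The sequences run from 250 bases before to 50 after the annotated start, on the gene's strand, from RefSeq on GRCm38.p6. Capitals mark matches to GAAA, any 2 bases and GAAA again, on either strand, the core of the interferon-stimulated response element, to which IRF factors are known to bind. The 4 genes are those with the lowest ratios, among the named genes, that hold a match in this window. Ccl12, Ifit2, Cmpk2, Ccl3, Cxcl9, Ifi209, Ms4a4c, Ifi47 and Ifi44l had lower ratios than Ifih1 and a promoter, but no match.
Cxcl10, chr5:92348840-92349139, minus strand: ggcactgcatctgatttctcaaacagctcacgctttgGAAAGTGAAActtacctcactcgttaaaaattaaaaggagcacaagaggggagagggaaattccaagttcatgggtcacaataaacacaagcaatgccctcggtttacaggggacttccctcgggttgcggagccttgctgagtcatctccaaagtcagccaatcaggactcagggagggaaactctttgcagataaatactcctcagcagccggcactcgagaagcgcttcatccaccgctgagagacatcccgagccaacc
Ifit3, chr19:34583279-34583578, plus strand: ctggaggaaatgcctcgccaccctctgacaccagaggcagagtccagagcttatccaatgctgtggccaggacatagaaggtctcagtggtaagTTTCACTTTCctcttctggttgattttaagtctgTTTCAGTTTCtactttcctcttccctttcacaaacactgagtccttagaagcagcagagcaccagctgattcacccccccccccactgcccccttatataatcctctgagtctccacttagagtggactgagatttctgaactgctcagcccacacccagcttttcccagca
Rsad2, chr12:26456403-26456702, minus strand: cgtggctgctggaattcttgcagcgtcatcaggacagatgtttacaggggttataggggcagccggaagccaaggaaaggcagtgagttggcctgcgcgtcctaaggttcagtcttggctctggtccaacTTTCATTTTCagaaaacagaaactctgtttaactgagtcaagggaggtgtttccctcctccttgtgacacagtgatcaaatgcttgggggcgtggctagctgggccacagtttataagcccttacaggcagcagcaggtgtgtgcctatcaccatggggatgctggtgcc
Ifih1, chr2:62646206-62646505, minus strand: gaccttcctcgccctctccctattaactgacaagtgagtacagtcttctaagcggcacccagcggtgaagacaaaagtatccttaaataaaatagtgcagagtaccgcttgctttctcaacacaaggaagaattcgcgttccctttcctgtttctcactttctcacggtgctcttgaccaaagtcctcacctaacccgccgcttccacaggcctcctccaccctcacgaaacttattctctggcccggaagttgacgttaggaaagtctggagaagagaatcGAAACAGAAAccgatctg
In Cxcl10 the match starts 213 bases before the annotated start, in Ifit3 there are 2 matches at 156 and 122 bases before it, in Rsad2 the match is 120 bases before it, and in Ifih1 32 bases after it. A promoter was given for 137 of the 171 lower genes. Of their 177 promoters, 32 (18.1%) held the motif, against 244 of 7423 (3.29%) for all genes with a ratio and 2 of 53 (3.77%) for the higher genes. Over all 32851 promoters the share was 3.44%. Among the antiviral effectors, 11 of 25 promoters (44.0%) held it. With the lists of interferon genes and CXCR3 ligands left out, it was 16 of 144 promoters of lower genes (11.1%). These lists do not hold every interferon-inducible gene, and Irgm2, Ddx60 and Trim21 remained among the genes with a match.

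The match to TGACGTCA, the full cyclic AMP response element bound by CREB, was in 2 of 177 promoters of lower genes (1.13%). It was in 1 of 53 promoters of higher genes (1.89%) and 221 of 7423 promoters of all genes with a ratio (2.98%). Over all 32851 promoters the count was 588 (1.79%). For GGGA, any 2 bases and TTCC, a core of NF-κB sites, the counts in the same order were 7 (3.95%), 0 (0%), 117 (1.58%) and 482 (1.47%). Shares of the lower and higher genes that rest on so few promoters say little. Both strands were searched. The NF-κB motif overlapped the interferon motif in 1 promoter. A match is a description of the letters in this window.

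The 2 higher genes with a match to the interferon motif were Cytip and Rarg. Cytip, the gene with the highest ratio of all, has a match that starts 177 bases before its annotated start, shown here as a contrast on GRCm38.p6.
Cytip, chr2:58160073-58160372, minus strand: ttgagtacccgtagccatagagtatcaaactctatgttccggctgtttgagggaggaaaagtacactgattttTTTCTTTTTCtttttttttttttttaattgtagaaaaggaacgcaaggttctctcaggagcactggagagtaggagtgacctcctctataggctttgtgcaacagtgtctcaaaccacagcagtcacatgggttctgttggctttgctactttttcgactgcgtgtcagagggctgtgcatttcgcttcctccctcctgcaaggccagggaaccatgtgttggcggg

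Lower genes often sat beside each other on the chromosome. In the order of the 6982 genes with a ratio that the RefSeq table places, 51 of the 171 lower genes (29.8%) had a lower gene as direct neighbour. Of the other 6811 genes, 274 (4.02%) had one. The runs included Ifit2, Ifit3 and Ifit1, then Cxcl9, Cxcl10 and Cxcl11, and Psmb9, Tap1, Psmb8 and Tap2, which lie together in the MHC. Smaller runs were Rsad2 with Cmpk2, Mx1 with Mx2, Ccl3 with Ccl4, and Il1a with Il1b. Many of these neighbours are gene copies with similar sequence, whose probe sets may share target. Of the 62 higher genes, 6 (9.68%) had a higher neighbour, against 118 of 6920 other genes (1.71%).

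The factors that carry interferon signals were lower in part. Of 17 with a ratio, 3 were at least 2-fold lower and 0 higher, with a median of -0.31. Irf7, which amplifies type I interferon responses, had 180 with both drugs, 580 with IL-1β, 662 with indomethacin and 855 with vehicle, a log2 ratio of -1.69. Stat2, a subunit of the factor that type I interferon activates, was at -1.55, and Irf8 at -1.07. Irf1 and Irf9 were both at -0.50. The receptor genes Ifnar1, Ifnar2, Ifngr1 and Ifngr2 were at -0.04, 0.02, 0.37 and 0.12, and the kinase Jak1 at -0.04. Ifnb1, which encodes interferon beta, was under the floor on both arrays. The receptor genes thus ranged from -0.04 to 0.37, and their part in the ratios of the interferon genes was not tested.

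MHC class I and peptide-loading genes ranged from level to lower. Of 12 with a ratio, 5 were at least 2-fold lower and 0 higher, with a median of -0.81. The peptide transporter genes Tap1 and Tap2 were at -1.56 and -1.25, and the immunoproteasome subunits Psmb9, Psmb10 and Psmb8 at -1.37, -1.28 and -1.07. The heavy chains H2-K1 and H2-D1 were at -0.03 and -0.10, and B2m, which pairs with them, at -0.10. Other measured probe sets of H2-D1 were as low as -0.45. H2-T24, a class I heavy chain gene outside the list and chosen after its values were seen, had 46.4 with both drugs and 184 with IL-1β, which gives a log2 ratio of -1.99. The heavy chains are near-identical relatives, so their probe sets may share signal. All 6 MHC class II genes on the array were under the floor on both arrays.

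Tlr3 and Tlr7 had the lowest ratios of the Toll-like receptor group. Tlr3, which senses double-stranded RNA, had 48.1 with both drugs, 244 with IL-1β, 238 with indomethacin and 286 with vehicle. Tlr7, which senses single-stranded RNA, was under the floor with both drugs, with 153 with IL-1β and 179 with vehicle. These 2 of 10 were at least 2-fold lower and 0 higher, with a median of -0.67. Tlr2, the receptor for bacterial lipoproteins, was at -0.94, Tlr8, which like Tlr7 is a receptor for single-stranded RNA, at -0.88, the endotoxin receptor Tlr4 at 0.04 and its co-receptor Cd14 at 0.21.

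Inflammatory cytokines were lower with both drugs or near their IL-1β level. Of 16 with a ratio, 5 were at least 2-fold lower and 0 higher, with 15 below the median gene and a median of -0.59. Tnf had 38.8 with both drugs, 171 with IL-1β, 247 with indomethacin and 307 with vehicle, a log2 ratio of -2.14. Its signal with both drugs lay just above the floor. Il1b had 1333 with both drugs, 3616 with IL-1β, 3163 with indomethacin and 956 with vehicle. Il1a was at -1.55 and Il18, the interferon-gamma inducing factor, at -1.30. The signal of Il1b with both drugs was nearer to that with vehicle than to that with IL-1β. The granulocyte factor Csf3 had 40.2 with both drugs and 89.1 with IL-1β, a value that also lay near the floor. Il1rn, the natural antagonist of the IL-1 receptor, was the one member above the median gene, with 2205 with both drugs, 1677 with IL-1β, 1040 with indomethacin and 1359 with vehicle.

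Il6 had 3645 with both drugs, 4353 with IL-1β, 3543 with indomethacin and 334 with vehicle, a log2 ratio of -0.26. Among cytokines that were lower with indomethacin, Il11 had 191 with both drugs and 226 with IL-1β, and was under the floor with indomethacin and with vehicle. Il33, an alarmin, had 294 with both drugs, 309 with IL-1β, 129 with indomethacin and 76.2 with vehicle. Inhba, a subunit of activin, had 1534 with both drugs, 1814 with IL-1β, 806 with indomethacin and 221 with vehicle. These 3 were within 0.25 of their IL-1β level on the log2 scale. Csf2, which encodes GM-CSF, was under the floor with both drugs and with vehicle, and had 72.3 with IL-1β and 244 with indomethacin. Ereg, an EGF receptor ligand, was at -0.98 and Lif at -0.70.

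NF-κB subunits and inhibitors had 0 of 16 past 2-fold, with a median of -0.14. The subunit gene Nfkb2 was at -0.75 and Tnfaip3, an inhibitor of the pathway, at -0.58. Nfkbia, which encodes its main inhibitor, had 4286 with both drugs and 4377 with IL-1β. Of the IL-1 receptor pathway, 0 of 7 were past 2-fold. Over all genes the share was 3.34%, so counts of 0 in lists of 16 and 7 say little. The receptor Il1r1 had 237 with both drugs, 189 with IL-1β, 116 with indomethacin and 109 with vehicle. The adhesion molecule genes Icam1 and Vcam1, which leukocytes bind, were at -1.04 and -0.65.

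Genes of co-stimulation went both ways. Of 13 with a ratio, 2 were higher and 2 lower by 2-fold. Cd40, which receives help from T cells, had 136 with both drugs, 651 with IL-1β, 747 with indomethacin and 695 with vehicle. Its other probe set was at -1.34, against -2.26. Cd274, the checkpoint ligand PD-L1, was at -1.69. Havcr2, the checkpoint receptor TIM-3, had 340 with both drugs and 60.6 with IL-1β, and was under the floor with indomethacin and with vehicle. Cd83, a marker of mature dendritic cells that other activated cells also make, had 282 with both drugs, 107 with IL-1β, 125 with indomethacin and 136 with vehicle. Tnfsf11, which encodes RANKL, had 167 with both drugs and 182 with IL-1β, and was under the floor with indomethacin and with vehicle.

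The genes with the highest ratios differed in their level on the other arrays. Cytip, which binds cytohesins and loosens integrin adhesion of leukocytes, had 1890 with both drugs and 109 with IL-1β, and was under the floor with indomethacin and with vehicle. It was 17.3-fold higher than with IL-1β, a log2 ratio of 4.12. Arg1, the arginase of alternatively activated macrophages, had 1053 with both drugs and 79.4 with IL-1β, and was under the floor on the remaining 2 arrays, a log2 ratio of 3.73. Cd207, the lectin langerin, had 479 with both drugs, 61.2 with IL-1β, 41.6 with indomethacin and 42.5 with vehicle. Of the other 10 dendritic and Langerhans cell markers on the array, among them Itgax, Flt3, Zbtb46 and Epcam, all were under the floor on both arrays.

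Several other genes of alternative activation were under the floor. Retnla, Chil3, Cd163, Clec10a and Mgl2 were under the floor on both arrays, and the mannose receptor Mrc1 was at -0.48. Klf4, a transcription factor of this list, had 192 with both drugs and 99.7 with IL-1β, which gives a log2 ratio of 0.95. The macrophage markers as a list were at -0.33, and their part in the ratios of the myeloid genes named here was not tested. Of 10 genes of this list with a ratio, 2 were at least 2-fold higher, Arg1 and Cd207, and 2 lower, the interleukin-10 receptor Il10ra at -1.25 and the fungal lectin receptor Clec7a at -1.06. Il10ra had only a bound of at most -0.34 under a floor at the 65th percentile. Csf2rb2, a chain of the mouse IL-3 receptor, had 284 with both drugs, 99.2 with IL-1β, 83.6 with indomethacin and 76.9 with vehicle.

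**Figure D3:**
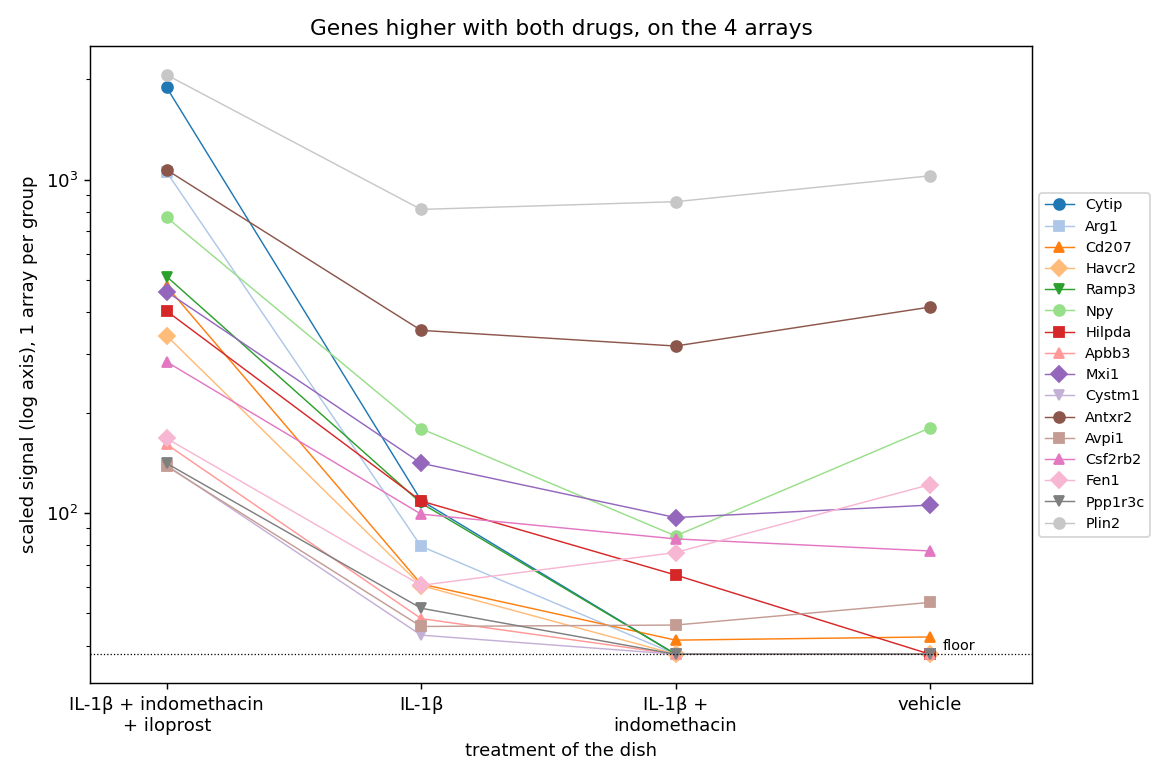
Scaled signal on a log axis for the 15 genes with the highest ratios above the floor on both arrays, as given by the rule for named genes, with Plin2, in each of the 4 dishes. Values under the floor are drawn at the floor. Cytip and Arg1 stand above 1000 with both drugs and near 100 or below on the other arrays.

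Peptide hormone signalling was represented by Ramp3 and Npy. Ramp3, which makes the calcitonin receptor-like receptor respond to adrenomedullin, had 512 with both drugs and 107 with IL-1β, and was under the floor with indomethacin and with vehicle. Calcrl, the receptor it pairs with, went the other way, with 112 with both drugs, 304 with IL-1β, 245 with indomethacin and 319 with vehicle. Adm, the peptide, was at -0.61. Npy, neuropeptide Y, had 771 with both drugs, 179 with IL-1β, 85.3 with indomethacin and 180 with vehicle. Penk, which encodes enkephalin, had 924 with both drugs, 899 with IL-1β, 355 with indomethacin and 110 with vehicle. Penk was thus level between the 2 dishes while Npy and Ramp3 were over 4-fold higher with both drugs. Of 7 genes in this list with a ratio, 2 were higher and 1 lower.

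Lipid storage genes were among those above their IL-1β level. Hilpda, a lipid droplet protein that inhibits lipolysis, had 403 with both drugs, 109 with IL-1β, 65.2 with indomethacin and was under the floor with vehicle. Plin2, which coats lipid droplets, had 2061 with both drugs, 814 with IL-1β, 859 with indomethacin and 1027 with vehicle. Angptl4, an inhibitor of lipoprotein lipase, was at 1.08, and at 0.94 on the scale as deposited. The lipase gene Lpl had 1370 with both drugs, 2840 with IL-1β, 4233 with indomethacin and 4175 with vehicle, a log2 ratio of -1.05. Of 18 genes in the list, 3 were higher and 2 lower, with a median of -0.02. The cholesterol exporter Abca1 was at 0.67 and the fatty acid carrier Cd36 at 0.56.

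Genes of sterol and fatty acid synthesis lay mostly above the median gene, 13 of 15, with a median of 0.34, or 0.18 as deposited. On the brightest probe set of each gene, only Scd1, a fatty acid desaturase, was past 2-fold. Its signal was 299 with both drugs, 122 with IL-1β, 84.8 with indomethacin and 99.5 with vehicle. Sqle, an enzyme of sterol synthesis, was at 0.89, Scd2 at 0.87 and Fasn, fatty acid synthase, at 0.77. The other probe sets of Scd2 were past 2-fold, at 1.20 and 1.37. The regulators Srebf1 and Srebf2 were at 0.10 and 0.00.

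Among glycolysis and hypoxia genes 2 of 24 were at least 2-fold higher and 0 lower. Mxi1, a repressor that opposes Myc, had 461 with both drugs, 141 with IL-1β, 96.9 with indomethacin and 106 with vehicle, and its second probe set was at 2.07, against 1.71. Bnip3, a mitophagy receptor, was at 1.00, and at 0.86 as deposited. The median of the list was 0.12, and -0.02 as deposited. Ndrg1, a hypoxia-induced gene, was at -0.72. Among retinoid genes 2 of 8 were at least 2-fold higher, and neither passed 2-fold under a floor at the 65th percentile, where their ratios were bounds of at least 0.73 for Crabp2 and 0.50 for Rarg. Crabp2, which carries retinoic acid to the nucleus, had 144 with both drugs and was under the floor on the other 3 arrays. Rarg, a retinoic acid receptor, had 123 with both drugs, 53.5 with IL-1β, 62.6 with indomethacin and 114 with vehicle. Its other probe set was under the floor with IL-1β, with a log2 ratio of at least 0.20, and the median over both was 0.70.

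Of the prostanoid receptors, 4 of 11 had a ratio and 0 were past 2-fold, where the share over all genes was 3.34%. Ptgir, the receptor that iloprost activates, had 83.6 with both drugs, 154 with IL-1β, 214 with indomethacin and 170 with vehicle, a log2 ratio of -0.88. Ptger4 had 230 with both drugs, 347 with IL-1β, 796 with indomethacin and 370 with vehicle, a log2 ratio of -0.60. Ptger2 had 74.3 with both drugs, 120 with IL-1β, 85.3 with indomethacin and was under the floor with vehicle. These 3, the receptors with a ratio that raise cyclic AMP, were therefore below their IL-1β level. Ptgfr, the prostaglandin F receptor, was at 0.62, with 200 with both drugs and 131 with IL-1β. Among the enzymes, the inducible cyclooxygenase Ptgs2 had 2598 with both drugs, 3476 with IL-1β, 2582 with indomethacin and 489 with vehicle. Prostaglandin E synthase Ptges was at 0.11, prostacyclin synthase Ptgis at 0.08 and the phospholipase Pla2g4a at 0.29. Thromboxane synthase Tbxas1 was the 1 of 9 past 2-fold, at -1.27, with a signal of 39.3 with both drugs near the floor.

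Hyaluronan genes stood close to the IL-1β level with both drugs, with 0 of 11 past 2-fold and a median of 0.23. Over all genes 3.34% were past 2-fold and 89.2% within 1.5-fold, so this closeness is not particular to the list. Uap1, which makes a hyaluronan precursor sugar, had 2710 with both drugs, 1973 with IL-1β, 251 with indomethacin and 274 with vehicle, a log2 ratio of 0.46. Other measured probe sets of Uap1 were at 0.54, 0.07 and 0.04. Has2, a hyaluronan synthase, had 343 with both drugs, 261 with IL-1β, 105 with indomethacin and 134 with vehicle. Ugdh, which makes the other precursor sugar, had 2241 with both drugs, 1909 with IL-1β, 872 with indomethacin and 622 with vehicle. All 3 were higher with both drugs and with IL-1β than on the other 2 arrays. Versican, Vcan, was the highest at 0.57. Tnfaip6, which links hyaluronan chains, was the lowest at -0.68, with 347 with both drugs, 557 with IL-1β, 252 with indomethacin and 230 with vehicle.

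The anticoagulant genes Procr and Thbd were also close to the IL-1β level, as were most genes with a ratio. Procr, the protein C receptor, had 3120 with both drugs, 2987 with IL-1β, 648 with indomethacin and 371 with vehicle. Thbd, thrombomodulin, had 302 with both drugs, 341 with IL-1β, 101 with indomethacin and 75.3 with vehicle. Serpinb2, an inhibitor of plasminogen activators, was the 1 of 11 coagulation and fibrinolysis genes past 2-fold, with 104 with both drugs, 373 with IL-1β and 531 with indomethacin, under the floor with vehicle. Tissue factor F3 was at -0.41 and the urokinase receptor Plaur at -0.02.

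Targets of cyclic AMP and CREB had 0 of 18 past 2-fold, where the share over all genes was 3.34%, and a median of -0.20. Crem, whose products include inhibitors of the pathway, was the highest at 0.83. It had 378 with both drugs, 213 with IL-1β, 91.8 with indomethacin and 72.8 with vehicle. Another probe set of Crem was at 0.23. Nr4a1, an orphan nuclear receptor, had 553 with both drugs, 821 with IL-1β, 76.8 with indomethacin and was under the floor with vehicle. Egr1, an immediate-early factor, had 159 with both drugs, 306 with IL-1β, 399 with indomethacin and 147 with vehicle. Pde4b, which degrades cyclic AMP, was at -0.44 and Gem at -0.85. The subunits of protein kinase A and the adenylyl cyclases had 0 of 10 past 2-fold, from -0.33 for Adcy7 to 0.52 for the scaffold Akap12.

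**Figure D4:**
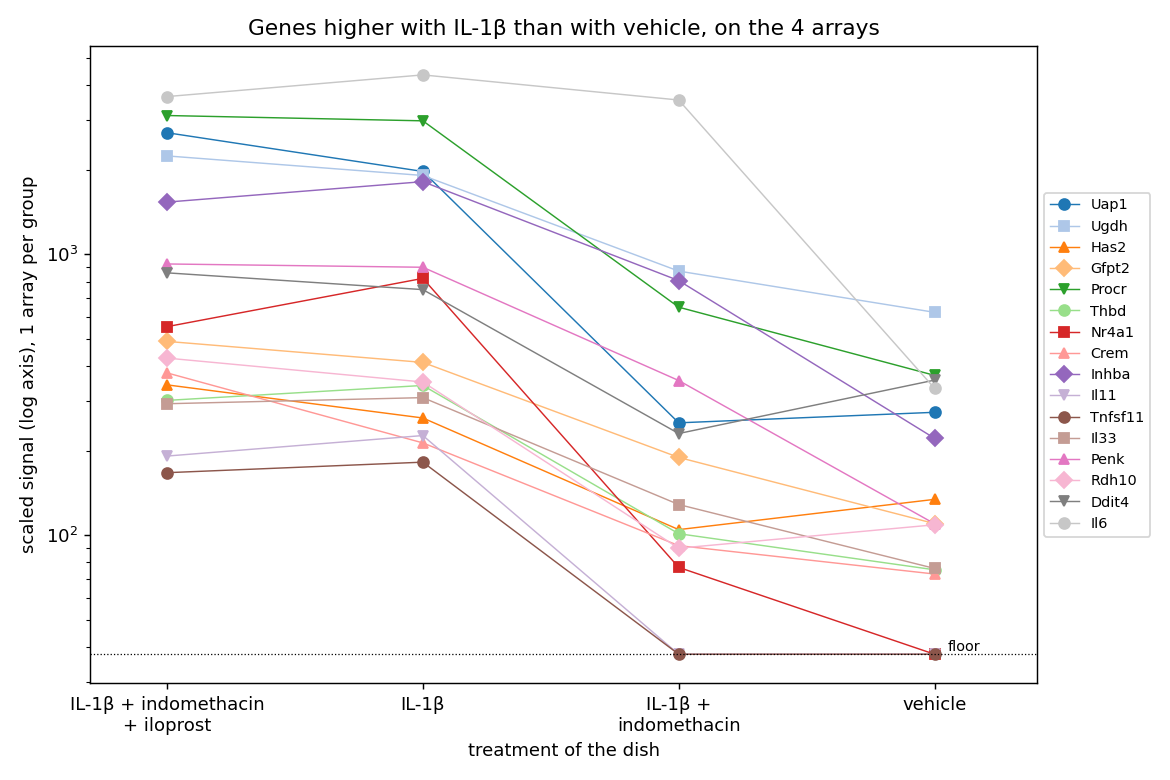
Scaled signal on a log axis for 16 genes that were higher with IL-1β than with vehicle, picked from the lists after their values were seen, in each of the 4 dishes. Values under the floor are drawn at the floor. Uap1, Procr and Penk stand near the same level with both drugs and with IL-1β and lower on the other 2 arrays, while Il6 is high on all 3 arrays with IL-1β.

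The 10 genes with the highest IL-1β signal relative to vehicle, above the floor on both of those arrays, were Ereg, Il6, Zc3h12a, Inhba, Penk, Procr, Lcn2, Uap1, Ptgs2 and Ccl20. Their log2 ratios of both drugs over IL-1β ran from -1.05 for Ccl20 to 0.46 for Uap1. The IL-1β array is shared by this choice and these ratios, so the choice and the ratios are not independent of each other. Over vehicle, with the IL-1β array left out of the ratio, the same genes had log2 ratios with both drugs from 1.71 for Ccl20 to 3.45 for Il6. The vehicle array was also part of the choice, so these ratios are not independent of it either.

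Matrix proteases had 2 of 17 higher and 2 lower, with a median of -0.41. Mmp13, a collagenase, had 518 with both drugs, 1300 with IL-1β, 1763 with indomethacin and 813 with vehicle. Mmp10, a stromelysin, had 118 with both drugs, 303 with IL-1β and 520 with indomethacin, under the floor with vehicle. Mmp3 was at -0.55 and the aggrecanase Adamts4 at -0.31. Mmp19, a protease of basement membrane, had 171 with both drugs, 65.6 with IL-1β, 57.4 with indomethacin and 80.2 with vehicle, and Mmp11 had a log2 ratio of at least 1.17. The inhibitor Timp1 was at -0.09. Structural matrix genes had 0 of 22 past 2-fold, where the share over all genes was 3.34%. Their median was 0.06, or -0.08 as deposited, with Col1a2 at 0.14, Col3a1 at -0.02 and lubricin, Prg4, the highest at 0.51.

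Other lists had 0 or 1 gene past 2-fold, where the share over all genes was 3.34%, so these counts say little about lists of this size. Among EGF family ligands and MAP kinase feedback genes 0 of 13 were, with Ereg the lowest at -0.98 and the phosphatase Dusp10 the highest at 0.90. Rgs16, at -0.89 on its brightest probe set, had -1.34 and a bound of at most -1.31 on its other probe sets. Growth factors and the TGF-β family had 0 of 18, with Bmp6 at -0.99 and Angpt1 at 0.79. Cell cycle genes had 0 of 22 past 2-fold, with cyclin D1, Ccnd1, at -0.99 and the inhibitor Cdkn1a at -0.70, while Cdc20, which activates the anaphase-promoting complex, was at 0.63. Among genes of protein and amino acid stress 1 of 21 was lower, Atf3 at -1.38. The lists of circadian, NRF2, complement, and Wnt and bone genes had 0 of 14, 0 of 17, 0 of 13 and 0 of 9 past 2-fold, and the 11 ribosomal protein genes ran from -0.30 to 0.07.

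**Figure D5:**
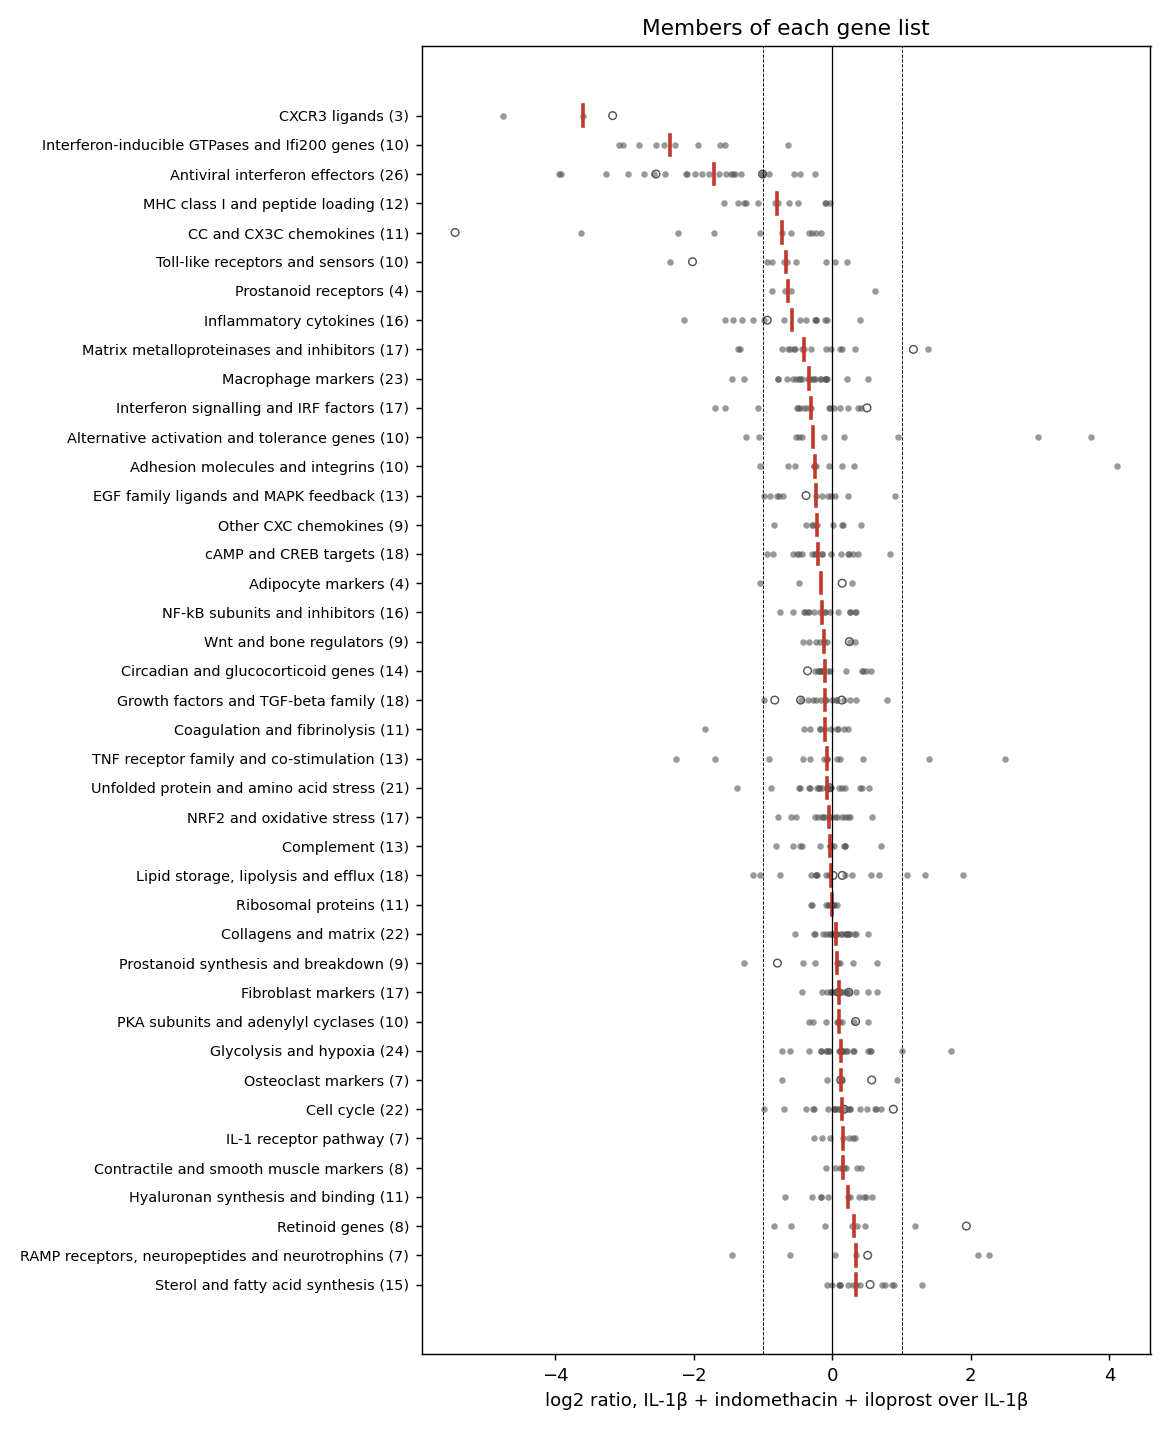
Log2 ratio of the array with both drugs over the IL-1β array for the members of each gene list with at least 3 ratios, 1 point per gene, with open circles for bounds, a red bar for the list median and the number of genes in brackets. Dashed lines mark 2-fold. CXCR3 ligands, interferon-inducible GTPases and antiviral effectors have medians past 2-fold, and the median of the sterol and fatty acid synthesis genes is 0.34.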

How the data were processed

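RNA of 4 dishes was hybridised to 4 Affymetrix arrays, 1 per group. The deposited values are linear intensity values, 1 per probe set and array, never negative. How they were summarised, background-corrected and scaled is not given in the sources used here. All 4 columns were used, with 0 left out.

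Gene names came from the array platform's annotation, and symbols were checked against the RefSeq table of GRCm38.p6, which changed 0. Of the probe sets, 20380 name 1 gene and were used, 691 name several genes, and the 64 control probe sets were left out. Each array was scaled to the median log2 signal of the 6222 genes measured on every array, then floored at the 50th percentile of all values (37.7) and log2-transformed. Where a gene had several probe sets, the one brightest on average (log2) was used. Genes are counted at 2-fold. The number of arrays limits the precision, and there are no replicates.

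The 47 lists (37 pathway lists, 10 marker lists) hold 821 entries, of which 729 had a usable probe set and 92 are not analysed here. Members and lists were chosen with earlier results of these data known. Named genes are the 15 highest and 15 lowest ratios among genes measured on both arrays with a brighter signal of 113 or more, up to 8 bounds of at least 4-fold in each direction, up to 5 largest and 4 smallest ratios of each list, lists of up to 10 genes whole, the prostanoid receptors and enzymes, Il1r1 and Il6, and the 10 genes highest with IL-1β over vehicle. The genes beside the 2-fold limit and those in the runs of neighbours were named for that reason, and genes outside these rules were chosen after their values were seen.

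Steps were run in Python 3.11.15 with NumPy 2.4.6 and pandas 2.3.3 and tested on simulated data. The alternatives were the scale as deposited, quantile normalization, floors at the 35th and 65th percentiles, and the median over a gene's probe sets. The result of 1 further motif searched is not reported here.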

Additional observations from a re-analysis of the deposited data

How the results depend on the processing

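No paired analysis was possible because each group has 1 array, and no library can be left out. With the floor at the 35th percentile, 147 genes were at least 2-fold higher and 223 lower, of 8742 with a ratio, and 29 and 131 of 5161 with the 65th percentile. The higher genes were 39.7% of those past 2-fold with the lower floor, against 26.6% in the report. The counts were 44 and 220 as deposited, 62 and 170 after quantile normalization, and 63 and 169 with the median over probe sets. Of the 171 lower genes, 171 were also lower as deposited, 163 after quantile normalization and 166 with the median over probe sets, and of the 62 higher genes 44, 59 and 59. Among 79 named genes past 2-fold, none changed sign under these alternatives and 19 came under 2-fold in at least 1, among them Tnf at a bound of -0.97, Tlr7 at -0.81, Csf3 at -0.03 and Tbxas1 at -0.13 with the higher floor, and Angptl4 and Bnip3 as deposited. The single measured dendritic and Langerhans marker, Cd207, was joined by others with the lower floor, where the list median was -0.15 in place of 2.97; more genes are measured there. Weak signals near the floor limit the ratios of such genes.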

Other observations

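Probe sets that name several genes were not used above. Of 691, 427 had a ratio, of which 3 (0.703%) were at least 2-fold higher with both drugs and 16 (3.75%) lower. Of 1555 probe sets without an entry in the annotation table, 478 had a ratio, of which 2 (0.418%) were higher and 13 (2.72%) lower. Of the probe sets for added control transcripts, 30 were measured on both arrays, with a median log2 ratio of -0.25 on the scaled unit. Of these 30, 0 were at least 2-fold higher and 1 (3.33%) was at least 2-fold lower.

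Several genes outside the lists were past 2-fold and were picked here after their values were seen. Acod1, which makes the antimicrobial metabolite itaconate in macrophages, had 1084 with both drugs, 2602 with IL-1β, 2444 with indomethacin and 2867 with vehicle. The inflammatory caspase genes Casp1 and Casp4 were at -1.24 and -1.19. Gch1, the first enzyme of tetrahydrobiopterin synthesis, was at -2.14, and Ch25h, cholesterol 25-hydroxylase, had 234 with both drugs, 772 with IL-1β, 1438 with indomethacin and 670 with vehicle. Trem1, which amplifies myeloid inflammation, had 116 with both drugs and 44.1 with IL-1β, and was under the floor with indomethacin and with vehicle. Il7r, a chain of the receptors for IL-7 and TSLP, had 124 with both drugs and was under the floor on the other 3 arrays.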
